A study of Mus musculus with 2 samples.

Results

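The 43 genes described here are transcripts that rise and fall with the cell division cycle, and they were taken by gene symbol from a fixed list, each with 1 row among the 55361 features of the deposited matrices. Of the 43, 19 are S-phase genes of DNA replication, 22 are G2/M genes of chromosome condensation and mitosis, and Hmgb2 and Stmn1 were kept outside both sums because many resting cells hold them. They were measured by droplet single-cell RNA sequencing of transcript 3′ ends in mouse pancreatic ductal adenocarcinoma, in 1 library labelled as whole tumour and 1 library of cells sorted as CD9hi (CD9 is a surface tetraspanin). Both libraries came from the KPFRR line, which carries Pdx1-Flp together with Trp53frt/frt and with insertions named Rosa26FSF-creER and Rosa26mTmG. Flp recombinase is driven by the Pdx1 promoter, which is active in pancreatic progenitors and epithelium. In both libraries Flp thus acts on alleles built to delete Trp53 and switch on a tamoxifen-dependent Cre, and the mTmG reporter turns from Tomato to GFP where Cre has acted. No treatment, animal age, number of animals or pooling is given in the sources used here, and the sort of living cells is described as by GFP or by CD9. The label of the CD9hi library says that it was sorted by CD9, and whether the other library was sorted by GFP is not stated. Each group had 1 library, so no difference between the libraries was tested, and every interval below is a 95% interval for counting error alone.

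Cells copy their DNA in S phase and divide in M phase. The retinoblastoma protein holds E2F factors in check until cyclin D and cyclin E kinases release them, and E2F factors then switch on replication genes such as the Mcm helicase subunits, the sliding clamp Pcna and the nucleotide-making enzymes Rrm2 and Tyms. Later, the MuvB core with B-Myb and Foxm1 activates mitotic genes such as Ccnb1, Plk1 and Cdc20 through promoter elements called CHR. Loss of Trp53 removes a brake that acts through the kinase inhibitor Cdkn1a.

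The libraries were deep. Of 3082 and 5500 barcodes, 2550 whole-tumour and 5092 CD9hi barcodes were kept, with 46270361 and 119632120 UMIs (unique molecular identifiers, each standing for 1 captured transcript) and medians of 17686 and 21791.5 UMIs a barcode, and 2 barcode sequences were kept in both. Levels are given as CPM, the UMIs of a gene per 1000000 UMIs of the same barcodes. The epithelial markers were present in both (Epcam 1925 and 1052 CPM, Krt18 3960 and 3063 CPM), Vim was at 1139 and 4862 CPM and Cd9 at 1273 and 2367 CPM. The GFP sequence had 0 UMIs in both libraries although GFP was a sort marker, and the Tomato sequence was at 0.130 and 0.0836 CPM. Both reporter sequences were thus at or near 0, so they do not tell which reporter state the cells had. In the whole tumour, 363 barcodes were acinar-high (at least 50000 CPM of 13 digestive enzyme genes), against 4 in the CD9hi library, and barcodes with at least 1000 CPM of immune markers numbered 4 and 30. Malat1, a nuclear long non-coding RNA, was under 1000 CPM in 216 whole-tumour barcodes (8.47%), of which 185 were acinar-high, and in 613 CD9hi barcodes (12.04%), of which 0 were. These 3 kinds of barcode touch several results, which are given with and without them.

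The members' promoters are given first, to show what the members of each list have in common besides their role. RefSeq windows of GRCm38.p6, from 250 bases before to 50 bases after a gene's start, were matched for 34 of the 43 members by symbol (37 windows). The letters searched, on both strands, were TTTGAA for the CHR, CCAAT for the CCAAT box, and TTTCGCGC, TTTGGCGC or TTTCCCGC for E2F. TTTGAA was found in 12 of 17 G2/M windows and 3 of 19 S windows, against 17.9% of all 32851 windows. CCAAT was found in 15 of 17 and 13 of 19, against 37.4%, and TTTGAA together with CCAAT in 12 of 17 and 2 of 19, against 6.95%. An E2F match was found in 1 of 17 G2/M windows and 7 of 19 S windows, against 1.84%. A match describes letters and shows no binding. The windows of 4 members are shown with the matches in capitals. Ccnb2 (chr9:70421505-70421804, minus strand), a cyclin B that activates Cdk1 for mitosis, and Cdk1 itself (chr10:69352863-69353162, minus strand) hold TTTGAA and CCAAT, and the Cdk1 window also holds TTTCGCGC. Mcm5 (chr8:75109259-75109558, plus strand), a subunit of the replicative helicase, has 2 E2F matches that overlap each other on opposite strands, beside 3 CCAAT matches. Rrm2 (chr12:24708004-24708303, plus strand), the small subunit of ribonucleotide reductase, is shown because it differed more between barcode classes than most S members, and only CCAAT was matched in its window.
Ccnb2: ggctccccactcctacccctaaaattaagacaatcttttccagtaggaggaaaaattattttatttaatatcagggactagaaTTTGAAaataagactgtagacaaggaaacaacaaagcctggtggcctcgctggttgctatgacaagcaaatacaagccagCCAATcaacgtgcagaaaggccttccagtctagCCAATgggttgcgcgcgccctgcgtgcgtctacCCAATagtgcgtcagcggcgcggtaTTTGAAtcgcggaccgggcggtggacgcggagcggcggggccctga
Cdk1: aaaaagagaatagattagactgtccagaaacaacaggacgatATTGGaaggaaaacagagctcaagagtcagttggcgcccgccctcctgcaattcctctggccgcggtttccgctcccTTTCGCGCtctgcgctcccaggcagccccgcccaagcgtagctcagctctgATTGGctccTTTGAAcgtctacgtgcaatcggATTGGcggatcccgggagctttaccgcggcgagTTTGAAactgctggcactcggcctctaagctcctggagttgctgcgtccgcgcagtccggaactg
Mcm5: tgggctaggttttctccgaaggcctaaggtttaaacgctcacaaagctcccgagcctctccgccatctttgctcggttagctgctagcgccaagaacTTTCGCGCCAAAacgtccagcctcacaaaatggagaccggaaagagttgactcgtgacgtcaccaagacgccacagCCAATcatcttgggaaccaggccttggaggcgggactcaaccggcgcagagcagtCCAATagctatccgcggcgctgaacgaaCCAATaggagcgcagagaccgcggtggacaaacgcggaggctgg
Rrm2: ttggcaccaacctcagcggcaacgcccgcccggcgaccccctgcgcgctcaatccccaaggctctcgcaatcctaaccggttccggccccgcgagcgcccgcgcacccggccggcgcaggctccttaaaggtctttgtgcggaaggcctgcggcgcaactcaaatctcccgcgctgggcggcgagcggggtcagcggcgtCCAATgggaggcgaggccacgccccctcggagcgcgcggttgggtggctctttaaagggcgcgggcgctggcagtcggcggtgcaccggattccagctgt

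The first question was how the members compared between the CD9hi and whole-tumour libraries. Of the 43 members, 18 were at least 1.5-fold higher in the CD9hi library and 2 at least 1.5-fold lower. Among the 9760 genes with a mean of at least 5 CPM, 17.1% passed that limit upward and 13.4% downward, and the all-gene median log2 ratio was 0.13. On the same floor of 5 CPM, 11 of 30 members were higher (36.7%) and 2 lower. That floor is on the mean of both libraries, so a member can pass it through 1 library alone. Of those higher, Rrm2 (2.81 CPM), Uhrf1 (4.93 CPM) and Ccnb1 (4.80 CPM) were under 5 CPM in the whole tumour. Of those lower, Mki67 was under it in the CD9hi library (4.61 CPM). Of the 9 members with a mean of at least 20 CPM, 1 was higher and 1 lower, and 7 of the 13 members below 5 CPM were higher. No share of all genes was computed at these levels. In the S list 7 of 19 were higher and 0 lower, and the median log2 ratio was 0.34. For the G2/M list the counts were 11 and 1 of 22, and the median 0.57. On the floor of 5 CPM, 5 of 16 S members were higher and 0 lower, and 6 of 12 G2/M members were higher and 1 lower. Summed over each list, the S genes took 330.5 CPM of the whole tumour against 398 CPM of the CD9hi library, and the G2/M genes 164 against 230 CPM. In such sums, fewer dividing cells and less RNA per cell cannot be told apart.

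Among S members, the abundant replication genes differed little. Pcna, the clamp that tethers DNA polymerase, had 81.4 CPM in the whole tumour against 83.3 CPM in the CD9hi library. Mcm6, another helicase subunit, was at 34.0 and 36.95 CPM, and the 6 Mcm genes had log2 ratios from 0.10 to 0.36. Tyms, the thymidylate synthase that makes dTMP, was at 28.1 and 27.4 CPM, and Fen1, the flap nuclease of lagging-strand synthesis, at 14.1 and 13.7 CPM. These 4 genes thus had nearly the same level in both libraries. The 7 S members called higher were Rrm2, Ccne1, Ccne2, Cdt1, Uhrf1, Cdc45 and Gins2. Rrm2 had 2.81 CPM in the whole tumour against 12.2 CPM in the CD9hi library (log2 ratio 2.12, from 1.86 to 2.39). Ccne1 and Ccne2, the E cyclins that drive entry into S phase, were at 1.34 and 0.540 CPM in the whole tumour against 4.76 and 2.69 CPM in the CD9hi library. The Ccne2 ratio rests on 25 whole-tumour UMIs and is 2.29 (1.73 to 2.97) on the log2 scale. Cdt1, which loads the Mcm helicase in G1, was at 8.95 and 15.8 CPM. Its partner in loading, Cdc6, was at 1.84 and 1.59 CPM, with an interval of the log2 ratio that spans 0 (-0.59 to 0.18). Uhrf1, which carries DNA methylation across replication, Cdc45 and Gins2, both partners of the active helicase, were 1.72-, 1.64- and 1.56-fold higher. Slbp, which binds histone mRNA, was at 43.2 and 58.7 CPM.

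Among G2/M members 11 of 22 were called higher in the CD9hi library and Mki67 was called lower. Kif20a, a kinesin of cytokinesis, was at 1.49 CPM in the whole tumour against 4.41 CPM in the CD9hi library, the highest ratio of the list (log2 ratio 1.56, from 1.20 to 1.95). Bub1, a kinase of the spindle checkpoint, was at 1.41 and 3.89 CPM. Foxm1, the transcription factor of mitotic genes, was at 1.86 and 5.13 CPM. These 3 genes were all below 5 CPM in the whole tumour. Birc5, the survivin subunit of the chromosomal passenger complex, was at 11.6 and 25.6 CPM, a log2 ratio of 1.14 (1.01 to 1.28). Ccna2, Ccnb1 and Ccnb2, the cyclins of S phase exit and mitosis, were 1.96-, 1.92- and 1.71-fold higher. Cenpa, the histone H3 variant of centromeres, was at 16.4 and 28.4 CPM, and Cdc20, which activates the anaphase-promoting complex, at 11.6 and 19.1 CPM. Tpx2, a spindle assembly factor, and its kinase Aurka were 1.82- and 1.56-fold higher. The 10 remaining members were within 1.5-fold, and Mki67 was the lower one. Mki67, which coats mitotic chromosomes and is the usual marker of dividing cells, had 9.03 CPM in the whole tumour against 4.61 CPM in the CD9hi library (log2 ratio -0.97, from -1.16 to -0.78). Cdk1 was at 18.7 and 16.6 CPM, Cenpf, a kinetochore protein, at 10.4 and 9.08 CPM, and Aurkb, the kinase that works with Birc5, at 2.87 and 2.39 CPM. Nusap1, a microtubule binder, was at 3.74 and 2.58 CPM. Hmgb2, a chromatin protein, was at 119 CPM in the whole tumour against 80.3 CPM in the CD9hi library, and Stmn1, which destabilises microtubules, at 303 and 195 CPM. The plot of CPM by library shows this spread among members.

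**Figure D1:**
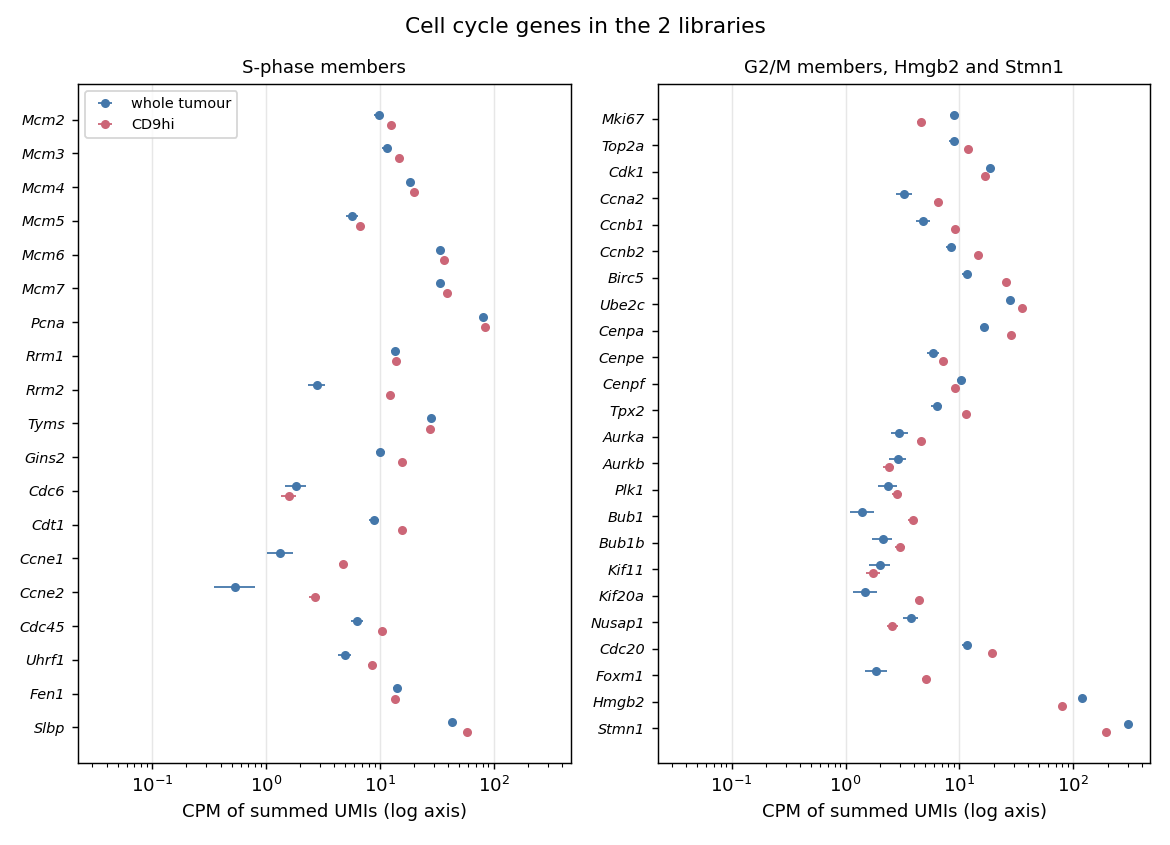
CPM of summed UMIs (log axis) of each member in the whole-tumour and CD9hi libraries, with exact Poisson 95% intervals as bars. The Pcna points nearly coincide, and those of the Mcm genes lie up to 1.28-fold apart (Mcm3). Rrm2 lies at 2.81 and 12.2 CPM, and Mki67 is among the members with the whole-tumour point to the right.

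These counts moved with barcodes of other kinds. Without the barcodes under 1000 CPM of Malat1, 12 members were higher and 4 lower (16.3% and 13.7% of all genes), and the medians were 0.15 for S and 0.29 for G2/M. Without acinar-high and immune-high barcodes, 15 were higher and 4 lower (12.2% and 15.9% of all genes). Without the 1100 CD9hi barcodes that held a Prrx1 UMI (Prrx1 is a mesenchymal homeobox factor) and the 6 such whole-tumour barcodes, 3 members were higher and 18 lower (16.0% and 13.2% of all genes). The G2/M median was then -0.91, and the G2/M sum was 94.6 CPM in the CD9hi library against 164 CPM in the whole tumour. The 3 members still higher were Cdt1, Ccne1 and Foxm1, and the lower ones included Mki67 (-2.39), Kif11, the bipolar spindle kinesin (-2.17), and Nusap1 (-2.03).

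Other genes of the cycle were read from fixed lists. Among all genes 17.1% were higher and 13.4% lower. Measured here means a mean of at least 5 CPM over both libraries, so a gene can pass through its level in 1 library alone. Of 16 measured replication genes outside the members, 3 were at least 1.5-fold higher and 0 lower (median log2 ratio 0.10). Of 14 measured mitosis genes, 7 were higher and 0 lower (median 0.50). Of 8 measured E2F and MuvB regulators 3 were higher, of 6 G1 cyclins and kinases 3 were higher, and of 6 CDK inhibitors 1 was higher and 1 lower. Without barcodes under 1000 CPM of Malat1, 1 replication gene was higher and 2 lower (median -0.0044), 5 mitosis genes were higher (median 0.25), and 0 CDK inhibitors were lower. The 5 highest were E2f8, a repressor made in S phase (2.90 CPM in the whole tumour against 19.6 CPM in the CD9hi library), Anln, a scaffold of cytokinesis (4.41 and 16.2 CPM), E2f1, the activator of S genes (3.39 and 11.9 CPM), Ccnd1, cyclin D1 (294.5 and 663 CPM), and Hmmr, a spindle protein (3.13 and 7.03 CPM). Of these, E2f8, Anln, E2f1 and Hmmr were under 5 CPM in the whole tumour and passed the floor only through the CD9hi library. The 5 lowest were Cdkn1b, the p27 inhibitor (14.7 and 9.64 CPM), Chaf1b, a histone chaperone (11.3 and 7.96 CPM), Kif23, a midbody kinesin (16.1 and 11.9 CPM), Gmnn, which blocks Cdt1 (24.9 and 18.8 CPM), and Lin9, a MuvB subunit (6.89 and 5.86 CPM).

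How many barcodes carried these transcripts was asked after each barcode had been thinned at random to 5000 UMIs, which left out 165 whole-tumour and 114 CD9hi barcodes that were shallower. At least 3 S-list UMIs were held by 19.7% of whole-tumour barcodes (18.2 to 21.4%) and 24.7% of CD9hi barcodes (23.5 to 25.9%). At least 3 G2/M-list UMIs were held by 3.06% (2.41 to 3.83%) and 6.63% (5.95 to 7.36%). In the same order, unthinned shares were 74.2% and 87.3% for S, and 9.56% and 22.2% for G2/M. Acinar-high barcodes, a differentiated type, were read in the same way, with 7.29% for S and 2.33% (1.01 to 4.54%) for G2/M at a median of 18265 UMIs before thinning, against 18228 for the whole tumour and 21976.5 for the CD9hi library. The whole-tumour barcodes that were not acinar-high had a G2/M share of 3.18% (2.47 to 4.04%), so the intervals overlap. Unthinned, 10.6% of them and 3.21% of the acinar-high ones held at least 3 G2/M UMIs. The acinar-high value rests on 8 of 343 barcodes, with 1 barcode at 1 UMI under the limit. Single members were seen in fewer barcodes. Mki67 was seen in 1.97% of thinned whole-tumour barcodes and 1.02% of CD9hi barcodes, Birc5 in 2.73% and 5.69%, and Rrm2 in 0.881% and 2.97%. The acinar-high shares of Mki67, Birc5 and Rrm2 were 1.75%, 2.04% and 0.875%, from 6, 7 and 3 barcodes.

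Without acinar-high barcodes, 2042 whole-tumour and 4975 CD9hi thinned barcodes were sorted by whether they held 3 or more UMIs of either list. S alone was held by 20.2% and 21.0% of barcodes, both lists by 1.67% (1.16 to 2.32%) and 3.72% (3.21 to 4.28%), and G2/M alone by 1.52% (1.03 to 2.15%) and 2.91% (2.46 to 3.42%). These are ranges of a count and not cell types, and 59 whole-tumour and 210 CD9hi barcodes lay 1 UMI under the G2/M limit. The barcodes with both lists were deeper before thinning, with medians of 28418 and 37152 UMIs against 18169 and 21603 UMIs for those with neither. In the CD9hi library, 7.57% of barcodes with both lists and 8.28% of those with G2/M alone were marked as doublets, against 3.72% of those with neither. The whole-tumour shares were 0%, 6.45% and 2.30%. Barcodes with both lists are described beside those with neither, since the libraries themselves differ in these classes. In the whole tumour 100% of the 34 with both and 68.8% of those with neither were in the low Vim class, and 8.82% and 0.447% had under 1000 CPM of Malat1. A Prrx1 UMI was held by 0% and 0.256%. In the CD9hi library 63.2% of the 185 with both and 46.1% of those with neither were in the high Vim class, and 88.1% and 39.0% were in the low Epcam class. A Prrx1 UMI was held by 78.9% and 17.4%, and 38.4% and 10.5% had under 1000 CPM of Malat1.

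Taken over all kept barcodes, the Malat1 level set the G2/M list apart from the S list in both libraries. The whole-tumour G2/M sum was 438 CPM in the 516 barcodes with 1000 to 10000 CPM of Malat1 and 46.0 CPM in the 609 barcodes with at least 30000 CPM, a 9.53-fold difference. For the CD9hi library the values were 521 CPM in 713 barcodes and 55.7 CPM in 1509, a 9.35-fold difference. Without acinar-high and immune-high barcodes the differences were 10.6- and 9.40-fold. The S sum differed less, at 438.5 against 295 CPM in the whole tumour and 566 against 331 CPM in the CD9hi library. The S to G2/M ratio thus went from 1.00 to 6.42 in the whole tumour and from 1.09 to 5.93 in the CD9hi library. All 22 G2/M members were at least 1.5-fold higher in the lower Malat1 class of the CD9hi library, where 9.83% of 9632 genes were. In the whole tumour 21 of 22 were, where 5.46% of 9944 genes were, and the exception was Foxm1 at 2.68 and 2.29 CPM. Of S members, 12 of 19 and 10 of 19 were. In this and the later comparisons of classes all members were counted, while the background genes had a mean of at least 5 CPM. CPM is a share of each barcode's UMIs, so Malat1, at 40269 CPM in the top whole-tumour class, takes part of the total, and the all-gene medians of these comparisons were -0.18 and -0.08 on the log2 scale. In the whole tumour, low Vim barcodes (classes defined below) had G2/M sums of 523 and 44.0 CPM in these Malat1 classes. The 75 and 129 middle Vim barcodes had 62.8 and 55.3 CPM. The 51 and 61 low Epcam barcodes had 34.7 and 51.4 CPM, against 559 and 44.5 CPM for high Epcam. The difference was thus absent from middle Vim and low Epcam barcodes there. In the CD9hi library it was present in every Vim and Epcam class.

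Ccnb2 had the widest range between these Malat1 classes among the members with at least 4 UMIs in each. In the whole tumour it was at 31.0 CPM in the 1000 to 10000 class and 0.398 CPM at 30000 CPM or more, and in the CD9hi library at 40.8 and 0.699 CPM. Mki67 was at 25.6 and 2.09 CPM in the whole tumour and at 12.7 and 0.760 CPM in the CD9hi library. Birc5 was at 35.1 and 3.28 CPM, and at 55.3 and 4.74 CPM. Each of these was thus over 10 times higher in the lower class of both libraries. Among S members Rrm2 behaved like the G2/M list, at 7.83 and 0.697 CPM in the whole tumour and 26.4 and 2.04 CPM in the CD9hi library. Pcna did not, at 93.7 and 83.1 CPM and at 101 and 82.3 CPM. Cdt1 was at 11.4 and 8.56 CPM and at 19.4 and 16.6 CPM. The plot of list sums by Malat1 level shows the G2/M sum crossing under the S sum from low to high Malat1.

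**Figure D2:**
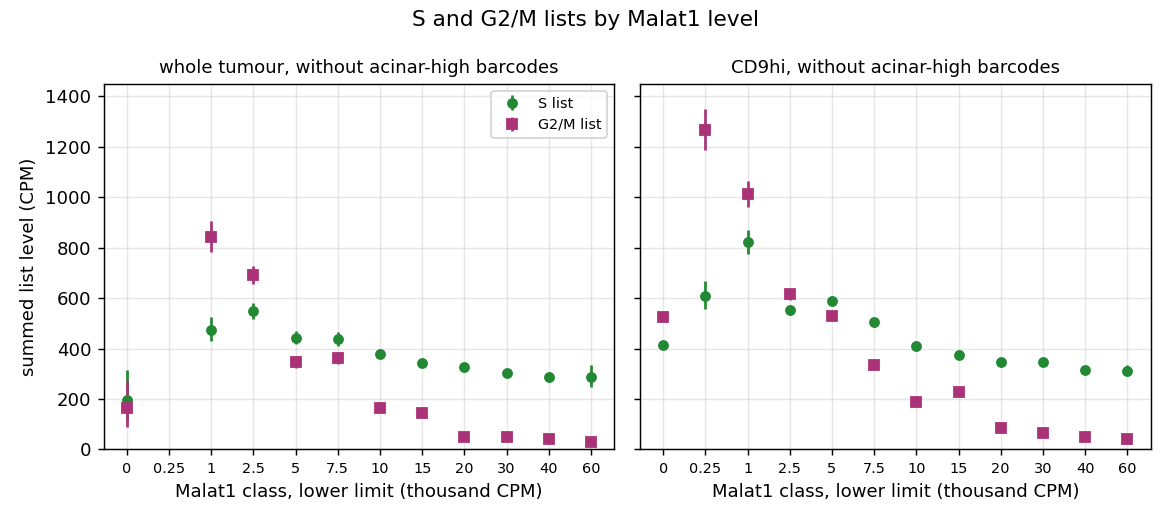
Summed CPM of the S list (circles) and the G2/M list (squares) with exact Poisson 95% intervals, by the lower limit of each Malat1 class (in units of 1000 CPM, evenly spaced), without acinar-high barcodes. In both libraries the G2/M sum is above the S sum between 1000 and 5000 CPM of Malat1 and below it in every class from 5000 CPM on.

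Barcodes under 1000 CPM of Malat1 differed between the libraries. In the CD9hi library these 613 barcodes had a G2/M sum of 572 CPM (558 to 585) against 191 CPM in the rest, and S sums of 426 and 395 CPM. They held a median of 2366 genes on a median of 17800 UMIs, against 4562.5 genes for the library, and Neat1, another nuclear RNA, was at 28.1 CPM against 1217 to 2999 CPM in the other Malat1 classes. Of all 8653 genes compared, 63.9% were at least 1.5-fold lower there and 9.36% higher, and the all-gene median log2 ratio was -1.19. Against that, 16 of 22 G2/M members were higher and 0 lower, and 8 of 19 S members were higher and 4 lower. Birc5 was at 91.7 CPM against 18.03 CPM in the rest, Ccnb2 at 49.6 against 10.4 CPM, and Rrm2 at 44.5 against 8.57 CPM. Other G2/M members were level, with Cenpf at a log2 ratio of 0.02, Top2a, the topoisomerase that untangles chromosomes, at -0.18 and Mki67 at 0.34. The 4 lower S members were Cdt1, Slbp, Cdc6 and Pcna. Cdt1 was at 1.47 CPM against 17.4 CPM in the rest, with a log2 ratio of -3.53 (-4.33 to -2.90), and Slbp was at 11.8 against 64.1 CPM. The ratios of Pcna (-0.89) and Cdc6 (-1.12) were less negative than the all-gene median. The number of detected genes and Neat1 moved with these values, and their part in them was not tested. There were 62 CD9hi barcodes that lay between 500 and 2000 CPM of Malat1. The 216 whole-tumour barcodes of this class were mostly acinar-high, with a G2/M sum of 62.7 CPM against 172 CPM in the rest and S sums of 82.5 and 350.1 CPM. There 0 of 22 G2/M members were higher, where 2.01% of 8687 genes were, and 17 were lower, where 93.4% were. The 31 that were neither acinar-high nor immune-high had a G2/M sum of 579 CPM (499.6 to 666) and an S sum of 554 CPM, on a median of 3280 UMIs.

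The epithelial marker Epcam and the mesenchymal marker Vim were next used to divide the barcodes, at the limits that cut both libraries pooled into 3 equal classes (298 and 1599 CPM for Epcam, 1145 and 4616 CPM for Vim). The classes are ranges: 3607 of 5092 CD9hi barcodes lay within 2-fold of the upper Vim limit. CD9hi barcodes had a G2/M sum of 407 CPM in the low Epcam class, 82.6 CPM in the middle and 82.5 CPM in the high class, while their S sum was 465, 339 and 349 CPM. All 22 G2/M members were at least 1.5-fold higher in low than high Epcam barcodes, where 13.0% of 9482 genes were, and 11 of 19 S members were. Ccna2 was at 12.7 CPM in the low class and 0.728 CPM in the high class, Ccnb1 at 18.3 and 1.80 CPM, and Rrm2 at 23.2 and 2.80 CPM. Cdt1 was at 13.8 and 16.7 CPM, and Pcna at 78.2 and 91.4 CPM. The G2/M members were thus higher in barcodes with little Epcam, while Pcna and Cdt1 were not. Without barcodes with a Prrx1 UMI the G2/M sum was 164 CPM in the low and 78.6 CPM in the high class, and the fold went from 4.93 to 2.09. Stmn1 went the other way, at 121 CPM in the low and 288 CPM in the high class.

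The low Epcam class of the whole tumour was different in make-up, since 201 of its 382 barcodes were acinar-high. Its G2/M sum was 78.3 CPM, against 203 CPM in the middle and 162 CPM in the high class, and 0 of 22 G2/M members were 1.5-fold higher in the low class. Of all 9365 genes 3.79% were higher and 69.9% lower there. Without acinar-high and immune-high barcodes the G2/M sum was 157.5 CPM in the 178 low, 198 CPM in the 699 middle and 164 CPM in the 1306 high barcodes, and the log2 ratio of low to high was -0.05 (-0.19 to 0.08). Between low and high Epcam the G2/M list thus differed in the CD9hi library by more than counting error, and in the whole tumour without acinar-high barcodes by less than it.

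Over all kept barcodes, the libraries went opposite ways by Vim. The whole-tumour G2/M sum was 204 CPM in the 1909 low Vim barcodes, 52.9 CPM in the 444 middle ones and 44.3 CPM in the 197 high ones, and low Vim barcodes held 92.0% of G2/M UMIs. The CD9hi sum was 114 CPM in the 638 low, 199 CPM in the 2103 middle and 279 CPM in the 2351 high barcodes. The S sum, to which Pcna and Slbp give much, was at 338, 318 and 290 CPM in the whole tumour and 365, 397 and 406 CPM in the CD9hi library. Of the G2/M members, 21 of 22 were at least 1.5-fold lower in high than low Vim barcodes of the whole tumour, where 15.3% of 9685 genes were, and the exception was Foxm1, higher at 2.62 CPM against 1.49 CPM in the low class, where 20.1% of genes were higher. Ccna2 and Ccnb1 had 0 UMIs in the 197 high Vim barcodes. Of the S members 9 of 19 were lower there and 1 was higher, with a median log2 ratio of -0.44. Ube2c, the ubiquitin enzyme of the anaphase-promoting complex, was at 4.98 CPM in the high and 35.7 CPM in the low class, and Cdk1 at 4.98 and 22.7 CPM. In the CD9hi library 18 of 22 were higher in the high class, where 7.71% of 9644 genes were, with Ube2c at 43.6 CPM in the high and 15.01 CPM in the low class and Cdk1 at 18.1 and 12.9 CPM. Of the S members 8 of 19 were higher and 1 lower there, and the median was 0.52. Cenpf was the 1 G2/M member that was lower, at 9.28 CPM in the high and 15.01 CPM in the low class. The CD9hi pattern rested on barcodes with a Prrx1 UMI. Without them the G2/M sum was 102 CPM in low, 106 CPM in middle and 81.2 CPM in high Vim barcodes. The slopes also differed with the Malat1 level. At 10000 to 30000 CPM of Malat1, the G2/M sum of low and high Vim barcodes was 144 and 40.1 CPM in the whole tumour. In the CD9hi library it was 81.9 and 164 CPM there. At 30000 CPM or more, low, middle and high Vim barcodes of the CD9hi library had 52.5, 60.4 and 51.8 CPM. Low and middle ones of the whole tumour had 44.0 and 55.3 CPM there.

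**Figure D3:**
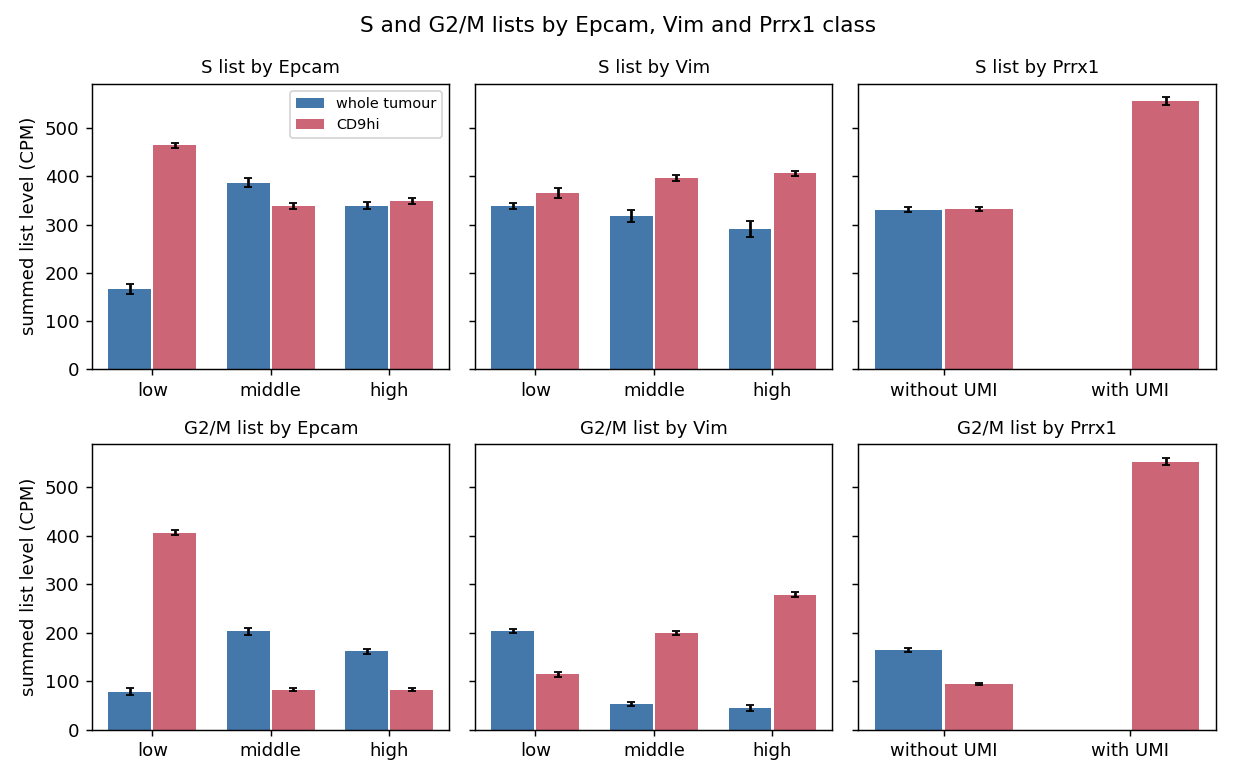
Summed CPM of the S list (top) and the G2/M list (bottom) by Epcam, Vim and Prrx1 class, all kept barcodes, with exact Poisson 95% intervals; the 6 whole-tumour barcodes with a Prrx1 UMI are not drawn. The G2/M bars of the libraries slope in opposite directions by Vim, from 204 to 44.3 CPM in the whole tumour and from 114 to 279 CPM in the CD9hi library.

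Barcodes with a Prrx1 UMI carried most of the G2/M UMIs of the CD9hi library. These 1100 barcodes, 21.6% of the library's barcodes, held 71.0% of its G2/M UMIs and 41.3% of its S UMIs. They were deeper than the others, so their share of all UMIs was also larger than their share of barcodes. The CPM that follow take depth into account. Their G2/M sum was 553 CPM (545 to 561) against 94.6 CPM (92.5 to 96.6) in the other 3992, and their S sum was 557 against 332 CPM. All 22 G2/M members and 14 of 19 S members were at least 1.5-fold higher with a Prrx1 UMI, where 14.4% of 9476 genes were. Ccna2 was at 18.9 CPM with and 1.17 CPM without a Prrx1 UMI, and Ccnb1 at 26.2 and 2.13 CPM. Ccne2 was at 7.22 and 0.795 CPM, Rrm2 at 31.8 and 4.04 CPM, and Mcm5 at 15.5 and 3.10 CPM. Mki67 was at 11.5 and 1.72 CPM. The 5 S members within 1.5-fold were Pcna, Cdt1, Mcm4, Mcm6 and Mcm7, with Cdt1 at 15.9 and 15.8 CPM and Pcna at 86.8 and 81.9 CPM. Stmn1 was lower, at 117 and 228 CPM. Over the G2/M members, the share of UMIs that lay in Prrx1 barcodes ran from 55.9% for Foxm1 to 87.1% for Ccna2, with a median of 73.3%.

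Barcodes with a Prrx1 UMI also differed in depth and in other markers. Their median was 29641 UMIs against 20883.5, Epcam was at 88.1 against 1455 CPM, Malat1 at 14476 against 24906 CPM, and the summed fibroblast markers at 317 against 30.6 CPM. Of these markers Col1a1 was at 109 against 14.5 CPM and Pdgfra at 7.05 against 0.700 CPM. The part of these differences in the result was not tested. When the Prrx1 class was taken from barcodes thinned to 5000 UMIs, the G2/M sum was 459 CPM in 550 barcodes and 122 CPM in 4428, and the S sum 529 and 339 CPM. The difference was also present within each Malat1 class. With and without a Prrx1 UMI, the G2/M sum was 854 and 292 CPM under 1000 CPM of Malat1, 759 and 235 CPM at 1000 to 10000, 399 and 66.2 CPM at 10000 to 30000, and 111 and 47.0 CPM at 30000 or more. Within the low Epcam class it was 569.5 CPM in 1021 barcodes with a Prrx1 UMI and 164 CPM in 1144 without. The whole tumour had 6 barcodes with a Prrx1 UMI, too few for this comparison. The plot of member ratios between classes gives these patterns gene by gene.

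**Figure D4:**
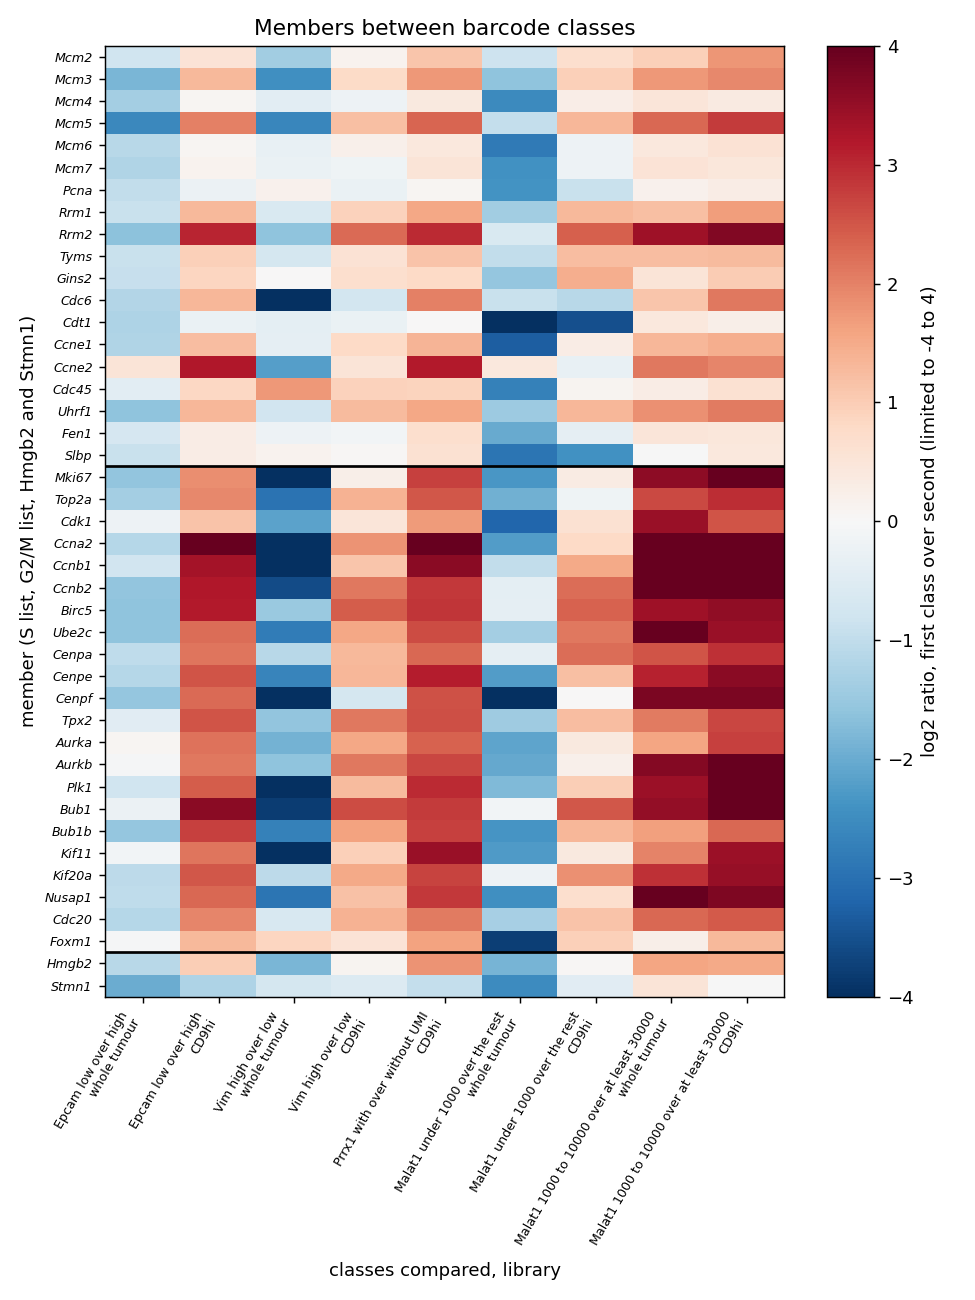
log2 ratio of each member's CPM (rows) between 2 barcode classes of a library (columns), on a colour scale limited to -4 to 4, where red is higher in the first class named. The G2/M block is red by Prrx1 and by the 1000 to 10000 Malat1 class and turns from blue to red between the libraries by Vim, while Pcna, Cdt1, Mcm4, Mcm6 and Mcm7 stay pale by Prrx1.

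Barcodes with at least 3 G2/M UMIs after thinning were compared between the libraries, each member being left out when its own barcodes were chosen. There were 57 to 65 such whole-tumour barcodes and 289 to 330 CD9hi barcodes, so counts are small. The choice rests on the other G2/M members and not on the background genes, so it bears on the ratios. The sets also differed in kind. With both lists and with G2/M alone, 88.1% and 81.4% of CD9hi barcodes were low in Epcam, against 2.94% and 6.45% in the whole tumour. A Prrx1 UMI was held by 78.9% and 52.4%, against 0% and 0%. The part of this in the ratios was not tested, and levels per dividing cell were not measured. Of the 22 G2/M members 14 were at least 1.5-fold lower in the CD9hi barcodes and 2 higher, and the median log2 ratio was -0.89. The background was 5736 other genes at or above the mean of the least abundant G2/M member in these barcodes (17.5 CPM), of which 29.3% were lower and 17.8% higher. Mki67 was at 212.5 CPM (68 whole-tumour UMIs) and 30.5 CPM (50 CD9hi UMIs), for a log2 ratio of -2.80 (-3.36 to -2.25). Cenpf was at 256 and 46.0 CPM, Aurkb at 70.8 and 16.5 CPM, and Ube2c at 488 and 246 CPM. Mki67, Cenpf and Aurkb, which were lower or level between the whole libraries, were the furthest apart here. Birc5 was at 194 and 184 CPM, Cenpa at 207 and 179 CPM, Ccna2 at 50.0 and 45.3 CPM, and Bub1 at 25.0 and 27.2 CPM, each with an interval of the log2 ratio that spans 0. Foxm1 and Kif20a were the 2 higher members, at 9.52 (3 UMIs) and 25.4 CPM and at 18.5 and 30.6 CPM, also with intervals that span 0. Hmgb2 was at 1102 and 312 CPM and Stmn1 at 791 and 225 CPM. When the barcodes were limited to at least 1000 CPM of Malat1 (at most 59 and 186 barcodes, an alternative added after seeing the data), 13 of 22 members were lower and 2 higher (20.4% and 25.9% of 6040 other genes), the median was -0.68 and Mki67 was at -2.33 (-2.92 to -1.76). Among S members Pcna was at 191 and 97.6 CPM and Rrm1, the large subunit of ribonucleotide reductase, at 95.4 and 42.4 CPM, while Rrm2 was at 49.2 and 78.8 CPM.

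**Figure D5:**
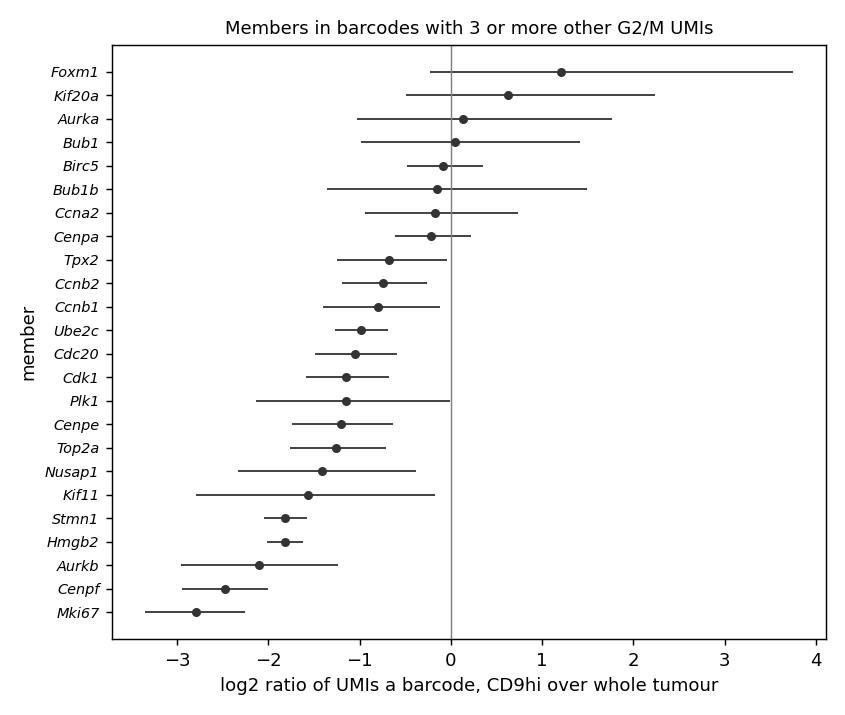
log2 ratio of UMIs a barcode, CD9hi over whole tumour, with 95% counting intervals, for the G2/M members, Hmgb2 and Stmn1 in barcodes with 3 or more UMIs of the other G2/M members. Mki67, Cenpf and Aurkb lie below -2, and Foxm1 and Kif20a lie above 0 with intervals that reach below it.

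S members were also compared with each other, from barcodes with S UMIs alone to barcodes with at least 3 G2/M UMIs, each left out of its own class. How these barcodes were chosen bears on the size of every ratio, so the values only order the S members among themselves. Rrm2 had the highest log2 ratio, 4.89 (3.27 to 7.49) from 3 UMIs in S barcodes of the whole tumour and 3.05 (2.58 to 3.57) in the CD9hi library, and Rrm1 was at 2.74 and 2.09. Slbp was at -0.13 and -0.01, with intervals that span 0. In thinned barcodes without acinar-high ones, the median Pearson correlation between pairs of G2/M members was 0.26 over 2042 whole-tumour barcodes and 0.15 over 4975 CD9hi barcodes. It was 0.04 and 0.05 between pairs of S members, close to that between S and G2/M members (0.03 and 0.05). Barcodes of a library share its depth and background, and the correlations are a description. Of the S members Rrm2 followed the sum of the G2/M list most closely, at 0.35 and 0.36.

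The genes outside the list most like each sum, by the lower of the 2 libraries' correlations among 6923 genes, were ranked as a description. For the S sum they were Hells, H2az1, Dut, Tuba1b, Npm1, Hmgn1, Ranbp1, Dnajc9, Gmnn and Snrpd1, with Hells, a chromatin remodeller, at 0.17 in the whole tumour and 0.18 in the CD9hi library. For the G2/M sum they were H2az1, Smc4, Selenoh, Tuba1b, Hmgb1, Dek, Ccdc34, Hmgn2, H2ax and Rpl41, with H2az1, a histone variant, at 0.25 and 0.34 and Smc4, a condensin subunit, at 0.29 and 0.23. H2az1 and Tuba1b stood in both rankings.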

How the data were processed

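The deposited file of each library is a matrix of whole-number UMI counts that the authors left unnormalized. The submitters' processing notes name Cell Ranger 7.0.0 and the build GRCm39, whereas the file headers record version 6.1.2. Groups were taken from the sorted population in the labels. The 43 members, the other gene lists and the classes were chosen with earlier results of these data known.

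A barcode was kept with 500 genes or more, 1000 UMIs or more and a mitochondrial share of 20% or less. Counts were summed per library or class and given as CPM. Log2 ratios used 0.5 added UMIs, a gene was called higher or lower at 1.5-fold, and the background was all genes with a mean of at least 5 CPM. Members were counted without that floor unless it is named, so their counts and the background shares are not on the same floor. In G2/M barcodes the background was the other genes at or above the mean of the least abundant G2/M member there, a floor chosen after seeing the data. With 1 library per group no test was made, and cells were not treated as replicates. Intervals at 95% are exact Poisson for CPM, conditional binomial for ratios and Clopper-Pearson for shares. Doublets were scored with Scrublet in scanpy 1.11.5 at an expected 0.8% per 1000 barcodes, which marked 52 and 207 barcodes, and were kept except in 1 alternative. Its automatic limit marked 0.510% and 0.0196%, so it did not work in the CD9hi library. Shares and correlations used barcodes thinned to 5000 UMIs. No clusters were used. Members may be named freely. Of other lists, the 5 highest and 5 lowest ratios at a mean of at least 5 CPM are named, and of genes most like a list, the first 10. Scripts ran in Python 3.11.15 with numpy 2.4.6, scipy 1.17.1 and pandas 2.3.3, and were tested on simulated data. Lin54, a MuvB subunit on a fixed list, had no row of its own and was not analysed here. 1 further allele of the line is not reported here.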

Additional observations from a re-analysis of the deposited data

Results flagged for a closer look

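The list sums went opposite ways in the libraries for 3 divisions of the barcodes, and none of these differences between libraries was tested. In each case the value is a log2 ratio of summed CPM, first for the whole tumour and then for the CD9hi library. From high to low Epcam, the G2/M sum had ratios of -1.048 and 2.301, and the S sum -1.032 and 0.4133. Without acinar-high and immune-high barcodes the whole-tumour values were -0.05 and -0.20, and the CD9hi values 2.31 and 0.41. From the rest to barcodes under 1000 CPM of Malat1, the G2/M sum had ratios of -1.451 and 1.581, and the S sum -2.083 and 0.1085. Without acinar-high and immune-high barcodes the whole-tumour values turned to 1.77 and 0.63, from 31 barcodes. From low to high Vim, the G2/M sum had ratios of -2.198 and 1.292, and the S sum -0.2195 and 0.1524. Without acinar-high and immune-high barcodes the whole-tumour values were -2.37 and -0.40.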

How the results depend on the processing

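No paired analysis was possible because each group had 1 library, and for the same reason no replicate could be left out. Of 111 recomputed summary results, 73 stayed within their interval or, for counts of members, within 1.5 times. The interval was for counting error, except for list medians. For those it ran from the median of the members' lower limits to the median of their upper limits. Of the 344 recomputed member ratios 292 kept their call, which for members within 1.5-fold did not require the same direction. Leaving out barcodes with a Prrx1 UMI changed most. The G2/M median turned to -0.91 and the S median went to 0.0094, with 3 members higher and 18 lower. The values by class given here are differences between classes in their log2 S to G2/M ratio. They were taken as Epcam low minus high, Vim high minus low, under 1000 CPM of Malat1 minus the rest, and with minus without a Prrx1 UMI. A negative value means fewer S UMIs per G2/M UMI in the first class. In the CD9hi library the difference turned to 0.16 by Vim and went to -1.17 by Epcam and -2.03 by Malat1. The shares there went to 21.7% for S and 2.78% for G2/M. Of the members past 1.5-fold over all kept barcodes, the ratio turned for Ccna2 (-1.47), Ccnb1 (-1.17), Ccnb2 (-0.72), Birc5 (-0.38), Cenpa (-0.31), Tpx2 (-0.44), Aurka (-0.51), Bub1 (-0.013) and Cdc20 (-0.24). Another 7 members, within 1.5-fold before, turned to at least 1.5-fold lower: Rrm1 (-0.63), Mcm5 (-0.88), Top2a (-0.80), Ube2c (-0.99), Cenpe (-1.43), Plk1 (-1.35) and Bub1b (-0.91). Some others turned but stayed within 1.5-fold, such as Mcm3 (-0.39). Leaving out barcodes under 1000 CPM of Malat1 gave medians of 0.15 for S and 0.29 for G2/M, with 4 members lower. The CD9hi differences were then -1.68 by Epcam, -0.93 by Vim and -1.89 by Prrx1, and the CD9hi G2/M share was 4.24%. Without acinar-high and immune-high barcodes 4 members were lower, the whole-tumour Epcam value was -0.14 and its S share 21.9%. Weighting barcodes equally put the S median at 0.15, and against the median of all genes 4 members were lower. Of the 9 members with a mean of at least 20 CPM, 1 was higher and 1 lower. Removing doublets put the CD9hi Epcam value at -2.02, as did class limits from the whole tumour alone (-2.02), which gave no Vim value because the lower limit was 0 CPM. With at least 2 UMIs the shares were 40.4% and 47.6% for S and 5.58% and 10.8% for G2/M in the whole tumour and the CD9hi library. With at least 5 UMIs they were 4.40% and 6.29%, and 2.31% and 4.42%. Thinned to 3000 UMIs they were 8.35% and 10.9%, and 2.22% and 4.83%. The Prrx1 class from thinned barcodes, gave -1.27 against -1.80. That alternative, and the member levels in G2/M barcodes with at least 1000 CPM of Malat1, were chosen after seeing the data. The cause of these changes was not tested. Depth limits the 13 members with a mean below 5 CPM, which rest on as few as 25 UMIs in the whole tumour.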
